A study of Rattus norvegicus with 120 samples.

Results

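The lysosome and autophagy genes described here are 44 named genes that encode lysosomal enzymes, lysosomal membrane proteins, subunits of the lysosomal proton pump, autophagy proteins and the transcription factor TFEB. The list of names uses no measured value as a criterion, but it was drawn up with earlier results of these data known. Each gene was taken from the array through the probe sets that map to that gene alone, and the probe set with the highest mean over all 120 arrays stood for the gene. On the array, 41 of the 44 genes had such a probe set, and all 41 were among the 10663 genes tested. Npc1, Map1lc3b and Gabarapl2 had none and were not analysed here.

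The series measured kidney gene expression in male Sprague-Dawley rats aged 5 to 7 weeks before treatment, which were dosed by intraperitoneal injection once a day with an immunosuppressant or with olive oil. Rapamycin (Rapa) was given at 10 or 1 mg/kg, FK506 (tacrolimus) at 6 or 0.6 mg/kg and cyclosporin A (CsA) at 25 or 2.5 mg/kg, and the vehicle rats received olive oil. Kidneys were taken on the day after the last of 1, 7, 14 or 28 daily doses, so each day has its own rats, and RNA from whole kidney pieces was hybridised to an Affymetrix rat genome array, 1 array a rat. At days 1, 7 and 14 every group had 4 rats except FK506 6 mg/kg at day 14, which had 3. At day 28 there were 6 rats at each Rapa dose, 5 at FK506 6 mg/kg, 6 at FK506 0.6 mg/kg, 4 at CsA 25 mg/kg, 5 at CsA 2.5 mg/kg and 5 given vehicle. The 6 treatments of a day share the vehicle rats of that day, so their differences from vehicle are not independent of each other.

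Lysosomes break down material delivered by endocytosis and autophagy, and the proximal tubule of the kidney, which takes up filtered protein all day, is rich in them. In autophagy the ULK1 kinase and the Beclin 1 complex start a membrane sac, a conjugation system attaches Atg8-family proteins (the LC3 and GABARAP proteins) to it, and the closed vesicle fuses with a lysosome. TFEB is a transcription factor that switches on many genes of both systems through short E-box sequences in their promoters. The kinase mTORC1, which Rapa inhibits, phosphorylates TFEB and keeps it in the cytoplasm, and the phosphatase calcineurin, which CsA and FK506 inhibit, dephosphorylates TFEB when calcium leaves the lysosome through the channel mucolipin 1 (MCOLN1).

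Levels are given as log2 of the deposited probe set intensity plus 16, after quantile normalization, and a change is the difference between 2 group means on that scale, with its standard error from limma. A gene was called changed at a Benjamini-Hochberg adjusted p under 0.05 over all 10663 genes. Median intensities of the 120 arrays lay between 52 and 86.1, and the mean correlation of an array with the others of its group was at least 0.957 except for 1 array at 0.912. That array, replicate 3 of CsA 25 mg/kg at day 28, held all 5273 intensities of 0 in the table, none of them in a lysosome or autophagy gene. Hybridization control levels were 7.52 to 10.4 in rats given FK506 6 mg/kg and 8.09 to 10.9 in rats given Rapa 1 mg/kg at day 28, against 10.6 to 10.7 in vehicle rats.

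The E-box letters that TFEB is known for were searched in RefSeq promoters of build GRCr8 (250 bases before to 50 after each gene's start), which were found for 34 of the 41 genes. The letters searched were CACGTG, the longer TCACGTGA and a still longer form with a G before and a C after it, each of which reads the same on both strands and contains the shorter ones. CACGTG stood in 7 of the 34 promoters (20.6%), against 2148 of all 33469 promoters of the same length (6.42%). The 34 hold 1 promoter a gene, while the 33469 were not limited in this way. TCACGTGA stood in 5 of 34 (14.7%) against 260 of 33469 (0.777%), and the longest form in 0 of 34 against 78 of 33469 (0.233%). The genes with CACGTG were Atg3, Atg5, Atp6v0d1, Cd63, Ctsd, Lamp1 and Mcoln1. By role, they were 1 of 10 proteases, 3 of 5 membrane proteins, 2 of 5 conjugation genes and 1 of 2 proton pump subunits. Glycosidases and lipid enzymes had 0 of 6, and the other roles had none. A match is a description of these letters and not of binding. Shown here are Ctsd and Mcoln1, both with E-boxes and, in these data, opposite in direction under CsA and FK506, Lamp1, which holds 5 E-boxes and was never called, and Dpp7, which holds none and changed most under Rapa. Capitals mark CACGTG, or all of TCACGTGA where it stands within that, and positions are those of the first letter of CACGTG. The E-boxes of Ctsd begin at positions -157 and -10 and those of Mcoln1 at -22 and 4 relative to the start site. The Ctsd promoter lies at chr1:206968772-206969071 (minus strand), that of Mcoln1 at chr12:6358008-6358307 (plus strand), that of Lamp1 at chr16:83075014-83075313 (minus strand) and that of Dpp7 at chr3:28567443-28567742 (minus strand), each written here 5′ to 3′ in the direction of transcription.
Ctsd promoter: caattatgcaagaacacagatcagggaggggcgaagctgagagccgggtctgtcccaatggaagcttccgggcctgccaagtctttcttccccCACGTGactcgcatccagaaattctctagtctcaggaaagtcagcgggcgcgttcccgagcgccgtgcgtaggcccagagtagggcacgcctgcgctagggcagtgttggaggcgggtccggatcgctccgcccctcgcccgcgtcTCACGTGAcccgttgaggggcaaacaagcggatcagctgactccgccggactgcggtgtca
Mcoln1 promoter: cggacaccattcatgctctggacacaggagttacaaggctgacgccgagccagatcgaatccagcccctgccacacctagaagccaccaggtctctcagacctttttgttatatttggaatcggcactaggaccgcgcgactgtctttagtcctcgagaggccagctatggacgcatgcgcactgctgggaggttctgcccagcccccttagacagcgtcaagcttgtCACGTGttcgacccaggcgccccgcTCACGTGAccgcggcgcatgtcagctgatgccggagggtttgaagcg
Lamp1 promoter: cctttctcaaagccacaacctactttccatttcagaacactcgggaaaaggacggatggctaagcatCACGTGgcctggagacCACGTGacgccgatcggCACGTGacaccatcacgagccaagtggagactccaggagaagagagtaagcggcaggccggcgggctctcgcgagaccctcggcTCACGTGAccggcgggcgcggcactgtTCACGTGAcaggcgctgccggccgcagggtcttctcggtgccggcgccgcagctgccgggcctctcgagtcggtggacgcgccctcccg
Dpp7 promoter: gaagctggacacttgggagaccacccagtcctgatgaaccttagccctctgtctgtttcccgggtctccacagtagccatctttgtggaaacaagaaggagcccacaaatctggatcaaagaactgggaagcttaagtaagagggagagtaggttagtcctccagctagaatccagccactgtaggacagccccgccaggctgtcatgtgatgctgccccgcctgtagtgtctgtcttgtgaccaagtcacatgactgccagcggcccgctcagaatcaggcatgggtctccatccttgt

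Over the 24 comparisons of a drug dose with vehicle, 29 of the 41 genes were called in at least 1, with 109 calls in all. Of the 41, 9 genes were called only higher, 15 only lower, 5 higher in some comparisons and lower in others, and 12 never.

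**Figure D1:**
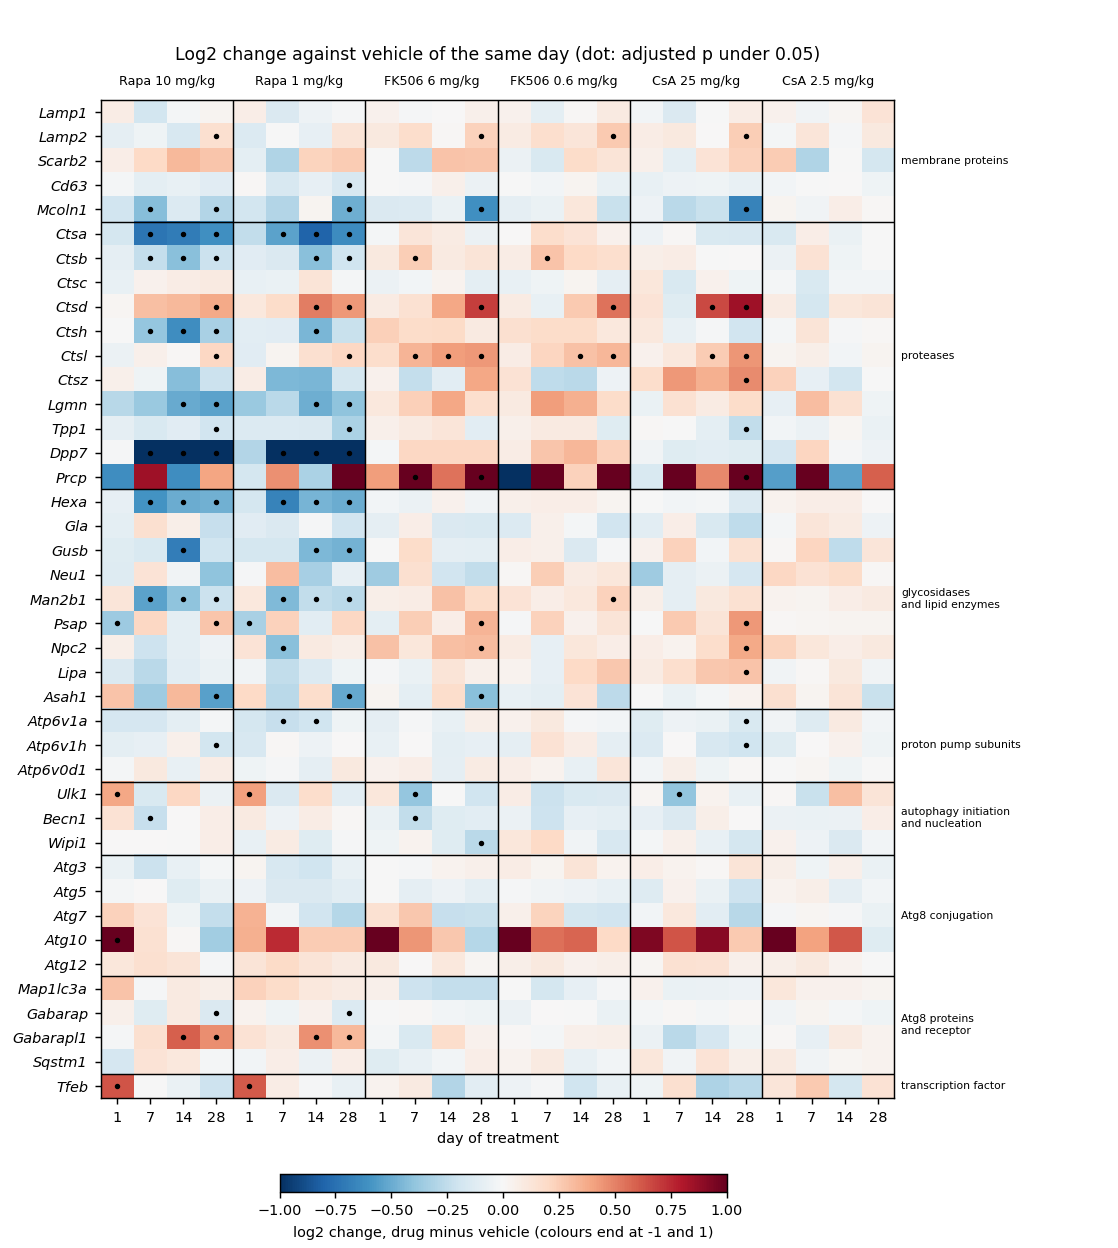
Log2 change from vehicle of the same day for the 41 genes (vertical, grouped by role) in 24 comparisons (horizontal, from Rapa 10 mg/kg to CsA 2.5 mg/kg, days 1 to 28 within each). Dots mark adjusted p under 0.05, and the colour scale ends at -1 and 1. The run of blue cells for Dpp7, Ctsa and Hexa lies in the Rapa columns from day 7, and the red cells for Ctsd and Ctsl extend over all 3 drugs at day 28.

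Most calls among the lysosomal hydrolases under Rapa were falls. At 10 mg/kg, 4, 5 and 6 of the 11 proteases and 2, 3 and 3 of the 9 glycosidases and lipid enzymes fell at days 7, 14 and 28, while 2 and 1 of them rose at day 28. Over all roles, 3 of the 41 genes rose and 1 fell at day 1, where 1.7% of all genes tested rose and 1.13% fell (2.82% in all). At day 7, 8 fell and 0 rose, against 4.3% and 3% of all genes (7.3% in all). At day 14, 8 fell and 1 rose, against 5.3% and 5.19% of all genes (10.5% in all). At day 28, 12 fell and 5 rose, against 8.16% and 7.57% of all genes (15.7% in all). The called share of the 41 genes was 41.5% at day 28, and their median change was -0.06, against -0.01 over all genes on the array. At 1 mg/kg, 1 fell and 2 rose at day 1, against 1.11% and 1.97% of all genes (3.08% in all), and 6 fell and 0 rose at day 7, against 2.61% and 1.61% (4.22% in all). At day 14, 9 fell and 2 rose at this dose, against 4.97% and 4.08% of all genes (9.05% in all), and at day 28, 12 fell and 3 rose, against 5.09% and 4.75% (9.85% in all). Of the 17 genes called at 10 mg/kg and the 15 called at 1 mg/kg on day 28, 13 were shared, all in the same direction, which is 76.5% of the first list and 86.7% of the second, with the same vehicle rats in both. The matching overlap over all genes was not counted, so these shares do not show anything particular to the 41 genes.

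Among the 11 proteases, Dpp7, a dipeptidyl peptidase that cleaves after proline, fell most. At day 7 its level was 10.04, 9.33, 9.87 and 10.25 in the rats given Rapa 10 mg/kg, against 11.71, 11.51, 11.19 and 10.88 in vehicle rats. At day 14 it was 9.71, 9.22, 9.05 and 9.51 under Rapa 10 mg/kg, against 10.77, 11.34, 11.52 and 11.26 in vehicle rats. At day 28 it had a lowest, median and highest level of 9.25, 9.80 and 9.89 in the 6 Rapa 10 mg/kg rats, against 11.03, 11.41, 10.93, 11.16 and 11.20 in vehicle rats. On each of these days every Rapa rat lay below every vehicle rat. The changes were -1.45 ± 0.17 at day 7, -1.85 ± 0.17 at day 14 and -1.46 ± 0.15 at day 28 (SE; limma adjusted p 4.61e-09, 5.21e-14 and 1.9e-12), which leaves 0.37, 0.28 and 0.36 of the vehicle level. At Rapa 1 mg/kg the changes were -1.36, -1.81 and -1.44 on the same days (adjusted p 3.36e-08, 1.54e-13 and 2.86e-12). At day 1, Dpp7 was 11.29, 11.33, 11.26 and 11.22 under Rapa 10 mg/kg, against 11.21, 11.29, 11.31 and 11.36 in vehicle rats, with overlapping groups.

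Ctsa, which encodes cathepsin A, a carboxypeptidase that also protects the sialidase NEU1 and beta-galactosidase in the lysosome, fell at the same days. At day 7 it was 12.58, 12.11, 12.58 and 12.46 under Rapa 10 mg/kg, against 13.19, 13.27, 13.17 and 13.01 in vehicle rats. At day 14 it was 12.49, 12.42, 12.32 and 12.33 under Rapa 10 mg/kg, against 12.86, 13.20, 13.23 and 13.06 in vehicle rats. By day 28 the level was 12.21, 12.61 and 12.71 (lowest, median, highest) under Rapa 10 mg/kg, against 13.05, 13.26, 13.17, 13.15 and 13.16 in vehicle rats. The groups did not overlap on any of these days. Its changes at days 7, 14 and 28 were -0.73, -0.70 and -0.61 at 10 mg/kg (adjusted p 3.24e-08, 4.1e-08 and 7.17e-09) and -0.53, -0.80 and -0.63 at 1 mg/kg (adjusted p 7.38e-05, 3.62e-10 and 8.05e-09).

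The papain-like proteases Ctsb and Ctsh and the asparaginyl endopeptidase Lgmn, which matures other cathepsins, fell by less. Ctsh at day 7 was 13.01, 12.62, 13.08 and 13.03 under Rapa 10 mg/kg, against 13.58, 13.35, 13.33 and 13.04 in vehicle rats, with overlap. At day 14 Ctsh was 12.52, 12.85, 12.52 and 12.68 under Rapa 10 mg/kg, against 13.09, 13.32, 13.45 and 13.19 in vehicle rats, without overlap. Its changes at 10 mg/kg were -0.39, -0.62 and -0.32 at days 7, 14 and 28 (adjusted p 0.0076, 6.13e-06 and 0.00409). The Ctsh call at day 7 was lost without vehicle replicate 1 (-0.31) or without Rapa replicate 2 (-0.29). Ctsb changed by -0.24, -0.41 and -0.22 on those days (adjusted p 0.0331, 4.7e-05 and 0.0108), and its call was lost in 4 of 8 refits without 1 rat at day 7 (range -0.28 to -0.19) and without vehicle replicate 2 at day 28 (-0.18). At day 14 Lgmn was 12.31, 11.88, 11.83 and 11.97 under Rapa 10 mg/kg, against 12.24, 12.58, 12.60 and 12.58 in vehicle rats, where 1 low vehicle rat overlapped the Rapa rats. Lgmn at day 28 was 11.88, 12.07 and 12.46 (lowest, median, highest) under Rapa 10 mg/kg, against 12.69, 12.68, 12.53, 12.62 and 12.63 in vehicle rats, without overlap. Its change was -0.50 at day 14 and -0.54 at day 28 (adjusted p 0.00427 and 0.000138). Tpp1, a tripeptidyl peptidase whose loss causes a lysosomal storage disease of neurons in humans, fell by 0.19 at 10 mg/kg and by 0.31 at 1 mg/kg at day 28 (adjusted p 0.00428 and 8.12e-06). The vehicle rats of day 28 had the highest Tpp1 mean of the 28 groups (10.85), against 10.62 in vehicle rats of day 1.

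Among the 9 glycosidases and lipid enzymes, Hexa, the alpha subunit of beta-hexosaminidase that acts on GM2 ganglioside, fell at both doses from day 7. At day 7 Hexa was 10.84, 10.87, 10.99 and 10.98 under Rapa 10 mg/kg, against 11.69, 11.63, 11.28 and 11.45 in vehicle rats. At day 14 Hexa was 11.04, 10.89, 10.86 and 10.98 under Rapa 10 mg/kg, against 11.43, 11.37, 11.44 and 11.50 in vehicle rats. By day 28 Hexa was 10.91, 10.95 and 11.11 (lowest, median, highest), against 11.40, 11.63, 11.35, 11.38 and 11.54 in vehicle rats. Every Rapa rat was lower than every vehicle rat on these days. Changes at days 7, 14 and 28 were -0.60, -0.49 and -0.48 at 10 mg/kg (adjusted p 3.85e-08, 4.16e-06 and 5.44e-08) and -0.67, -0.46 and -0.50 at 1 mg/kg (adjusted p 2.26e-09, 2.61e-05 and 5.09e-08).

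Man2b1, the lysosomal alpha-mannosidase, was 10.50, 10.30, 10.31 and 10.39 at day 7 under Rapa 10 mg/kg, against 10.87, 11.06, 10.93 and 10.77 in vehicle rats. Its changes were -0.53, -0.40 and -0.22 at days 7, 14 and 28 (adjusted p 4.54e-06, 0.000513 and 0.026), the last lost without vehicle replicate 1 (-0.21), 2 (-0.20) or 5 (-0.20), and also when the compared day was fitted alone (-0.22). A second Man2b1 probe set moved by 0.28 at day 14 (adjusted over all probe sets, p 0.634) and so did not show the fall. Gusb, beta-glucuronidase, was 7.76, 8.21, 7.78 and 7.81 at day 14 under Rapa 10 mg/kg, against 8.83, 8.58, 8.46 and 8.47 in vehicle rats, a change of -0.69 (adjusted p 3.46e-05) without overlap. Asah1, acid ceramidase, fell late: at day 28 it was 8.78, 9.15 and 9.41 (lowest, median, highest) under Rapa 10 mg/kg, against 9.45, 9.79, 9.76, 9.67 and 9.72 in vehicle rats (-0.54, adjusted p 0.00384). The other Asah1 probe set moved by -0.12 there (adjusted over all probe sets, p 0.531).

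Psap, the precursor of the saposins that present sphingolipids to their hydrolases, went both ways under Rapa 10 mg/kg. At day 1 it was 10.80, 10.53, 10.83 and 10.75, against 11.18, 11.16, 11.01 and 11.01 in vehicle rats, a change of -0.36 (adjusted p 0.00707) that lost its call without Rapa replicate 2 (-0.29). At day 28 it was 11.00, 11.31 and 11.44 (lowest, median, highest), against 10.84, 10.98, 11.04, 10.99 and 11.04 in vehicle rats, a change of 0.28 (adjusted p 0.0047) with overlapping groups. The change of the Rapa effect between those days was itself called (0.64, adjusted p 7.98e-05).

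**Figure D2:**
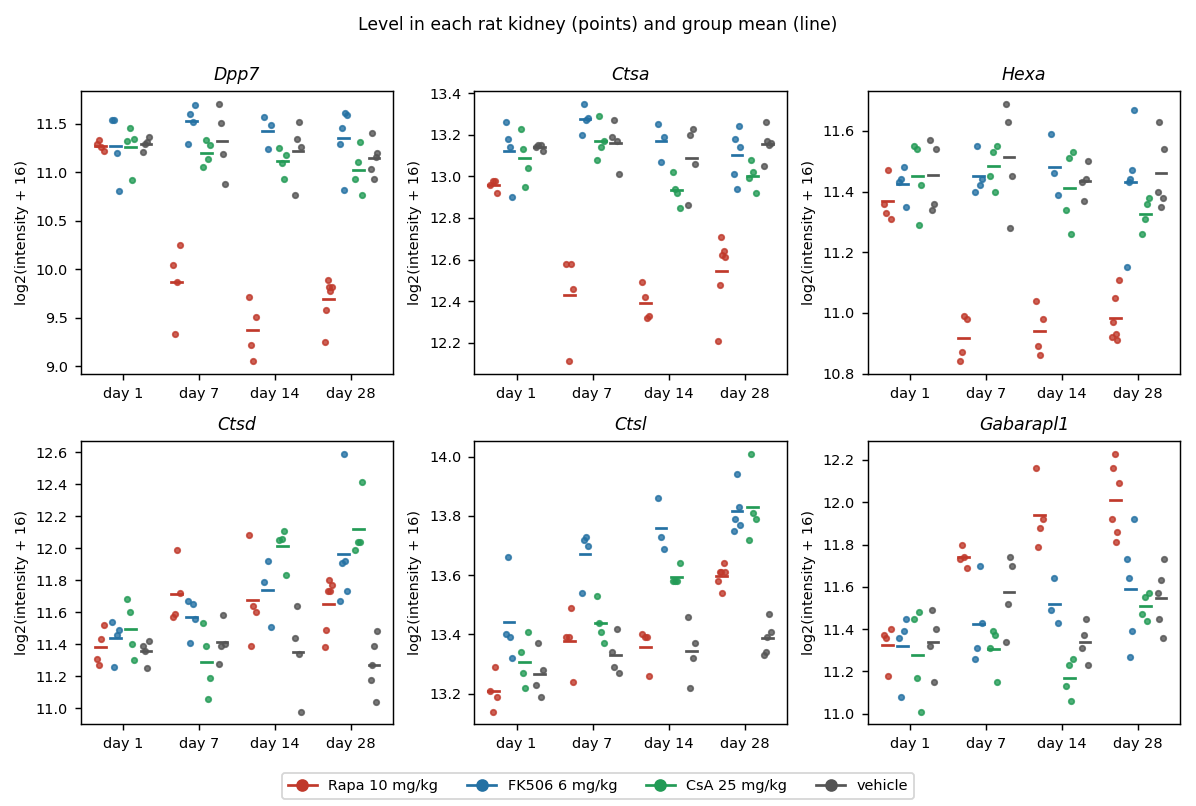
Level of 6 genes (panels) in every rat (vertical axis, log2 of intensity plus 16 after quantile normalization) at each day (horizontal axis), for Rapa 10 mg/kg, FK506 6 mg/kg, CsA 25 mg/kg and vehicle. Points are rats and lines are group means. Rapa rats lie below all vehicle rats for Dpp7, Ctsa and Hexa at days 14 and 28, and CsA 25 mg/kg rats lie above all vehicle rats for Ctsd and Ctsl at day 28.

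Of the 12 autophagy genes, 2 were called higher under Rapa 10 mg/kg at day 1 (Ulk1 and Atg10) and 1 lower at day 7 (Becn1, -0.23, adjusted p 0.0304). At day 14, 1 was called higher (Gabarapl1), and at day 28, 1 higher and 1 lower (Gabarapl1 and Gabarap). Over all genes tested, 2.82%, 7.3%, 10.5% and 15.7% were called at days 1, 7, 14 and 28. Gabarapl1 is a GABARAP-family Atg8 protein, one of the 3 Atg8 genes on the array. At day 14 Gabarapl1 was 12.16, 11.79, 11.88 and 11.92 under Rapa 10 mg/kg, against 11.31, 11.37, 11.45 and 11.23 in vehicle rats. By day 28 its level was 11.92, 12.16, 12.23, 11.81, 11.86 and 12.09, against 11.57, 11.45, 11.63, 11.36 and 11.73 in vehicle rats. The groups were separate on both days, and the changes were 0.60 ± 0.11 and 0.46 ± 0.10 (SE; adjusted p 7.3e-05 and 0.000175). At 1 mg/kg the changes were 0.46 and 0.32 (adjusted p 0.00351 and 0.0168), with the day 28 call lost without vehicle replicate 2 (0.30) or 4 (0.28). A second Gabarapl1 probe set, with p adjusted over all probe sets, moved by -0.50 at day 1 (p 0.0424), 0.65 at day 14 (p 0.00289) and 0.35 at day 28 (p 0.0762) under Rapa 10 mg/kg. Its relative Gabarap fell by 0.15 and 0.14 at day 28 at the higher and lower dose (adjusted p 0.0139 and 0.03), while another Gabarap probe set moved by 0.02 at the higher dose. With day 28 fitted alone, neither Gabarap call (-0.15 and -0.14) nor the Gabarapl1 call at 1 mg/kg (0.32) was made.

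Tfeb and Ulk1, the kinase gene that starts autophagy, were higher 24 hours after the first Rapa dose. Tfeb at day 1 was 8.76, 8.59, 8.65 and 8.66 at 10 mg/kg and 8.91, 8.79, 8.61 and 8.30 at 1 mg/kg, against 8.17, 8.13, 7.87 and 7.98 in vehicle rats. Its changes were 0.63 ± 0.15 and 0.62 (SE; adjusted p 0.00509 and 0.00715). Ulk1 at day 1 was 8.42, 8.76, 8.73 and 8.66 at 10 mg/kg and 8.63, 8.66, 8.67 and 8.68 at 1 mg/kg, against 8.24, 8.11, 8.31 and 8.35 in vehicle rats. Every Rapa rat exceeded every vehicle rat for both genes, and the Ulk1 changes were 0.39 and 0.41 (adjusted p 0.0164 and 0.0115). The Tfeb call at 1 mg/kg was lost without Rapa replicate 1 (0.53), the Ulk1 call at 10 mg/kg without vehicle replicate 2 (0.34) or Rapa replicate 2 (0.35) or 3 (0.36), and that at 1 mg/kg without vehicle replicate 2 (0.36). The same arrays differed in a measure of RNA quality: the log2 ratio of the 3′ to the 5′ Gapdh probe set, which rises as RNA or labelled product shortens, was 0.621 to 0.950 at 10 mg/kg and 0.566 to 0.924 at 1 mg/kg, against 0.254 to 0.404 in vehicle rats. With that ratio as a covariate the changes at 10 mg/kg were 0.40 for Tfeb (adjusted p 0.401), 0.32 for Ulk1 (0.332), -0.21 for Psap (0.469) and 1.54 for Atg10 (0.25), so all 4 day 1 calls of this dose were lost. The groups did not overlap in this ratio, so drug and ratio cannot be told apart at day 1. A second Ulk1 probe set moved by -0.06. At day 7, where the hydrolase falls began, the ratios also did not overlap. They were 0.346 to 0.486 at 10 mg/kg and 0.367 to 0.477 at 1 mg/kg, against 0.598 to 0.888 in vehicle rats. Drug and ratio cannot be told apart there either. With the ratio as a covariate the day 7 counts were 8 at 10 mg/kg and 5 at 1 mg/kg, in place of 8 and 6. At day 28 Tfeb was 7.86, 8.15 and 8.37 (lowest, median, highest) under Rapa 10 mg/kg, against 8.61, 8.53, 8.24, 8.09 and 8.32 in vehicle rats, and was not called.

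Atg10, an E2-like enzyme of the conjugation system, was 7.09, 7.30, 6.76 and 7.39 at day 1 under Rapa 10 mg/kg, against 5.28, 6.72, 5.16 and 5.26 in vehicle rats (1.53 ± 0.44, SE, adjusted p 0.0322), a call lost in 6 of 8 refits without 1 rat (range 1.38 to 1.90). The vehicle rats of day 1 had the lowest Atg10 mean of the 28 groups (5.61). The FK506 changes from these same rats were 1.77 at 6 mg/kg and 1.44 at 0.6 mg/kg. Those of CsA were 0.94 at 25 mg/kg and 1.49 at 2.5 mg/kg. None of these was called, and the Atg10 difference at day 1 is not particular to Rapa. The other 4 conjugation genes (Atg3, Atg5, Atg7 and Atg12) were not called in any of the 24 comparisons.

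The rats with lower hydrolase levels also had lower macrophage marker levels at days 7 and 14. The summed intensity of 18 macrophage and myeloid markers at day 7 was 2810 to 3463 under Rapa 10 mg/kg, against 3553 to 5645 in vehicle rats, without overlap, and 1 of the 15 markers tested fell. At day 14 it was 2529 to 3898 under Rapa 10 mg/kg, against 4161 to 5499 in vehicle rats, again without overlap, and 8 of the 15 fell. At day 28 the sums were 2904 to 5397 against 3461 to 5297 in vehicle rats, with 1 marker higher and 1 lower. The summed proximal tubule markers (12 genes) were 71751 to 81167 at day 14 under Rapa 10 mg/kg, against 82337 to 87232 in vehicle rats, and at day 28 69076 to 85120 against 76788 to 87545, where 3 of the 12 fell. The summed intensity of 8 tubular injury markers at day 28 was 9263 to 13530 under Rapa 10 mg/kg and 8739 to 28384 under Rapa 1 mg/kg, against 5572 to 7942 in vehicle rats, without overlap, and 1 and 4 of the 8 rose. Of the macrophage list, Cd163 was the marker at 0, on 1 array. The part of these shifts in the falls of lysosomal genes was not tested. In whole kidney tissue, fewer cells of a type and less RNA per cell cannot be told apart.

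Under CsA and FK506 most calls among these genes came at day 28, and most were rises. For CsA 25 mg/kg and both FK506 doses the share of all genes called was also highest at day 28. At CsA 25 mg/kg limma called 0 of 41 genes at day 1 (0.675% of all genes called; 2 of 41 at an unadjusted p under 0.05). Replicates 3 and 4 of that group stood apart, with summed intensities of 8 liver transcripts of 74621 and 63435, against 1004 and 734 in replicates 1 and 2 and 664 to 1187 in vehicle rats. Without them the count was also 0. At day 7, 1 fell and 0 rose, against 1.8% and 2.17% of all genes (3.97% in all), and at day 14, 2 rose and 0 fell, against 4.75% and 3.14% (7.89% in all). At day 28, 8 rose and 4 fell, against 10.5% and 10.7% of all genes (21.1% in all). The day 28 share, 29.3% of the 41 genes, stands beside that 21.1%, and their median change was 0.00 against 0.03 over all genes on the array. At FK506 6 mg/kg limma called 0 at day 1 (0.0281% of all genes; 4 of 41 at an unadjusted p under 0.05). At day 7, 3 rose and 2 fell, against 1.78% and 1.42% of all genes (3.2% in all), and at day 14, 1 rose and 0 fell, against 1.24% and 1.44% (2.68% in all). At day 28, 6 rose and 3 fell, which is 22% of the 41, against 8.73% and 7.29% of all genes (16% in all). At FK506 0.6 mg/kg limma called 0 at day 1 (0% of all genes; 1 of 41 at an unadjusted p under 0.05). No gene of the 41 fell later at this dose, where 1.03%, 0.497% and 1.74% of all genes fell at days 7, 14 and 28. Rises numbered 1 at day 7 (0.9% of all genes rose, 1.93% called in all), 1 at day 14 (0.375%, 0.872% in all) and 4 at day 28 (2.59%, 4.33% in all). At CsA 2.5 mg/kg limma called 0 at every day, while 0%, 0%, 0.0656% and 0% of all genes were called at days 1, 7, 14 and 28. There, 1, 4, 2 and 0 of the 41 genes had an unadjusted p under 0.05. At day 28, Lamp2, Ctsd, Ctsl, Npc2, Psap, Mcoln1 and Prcp were called at both CsA 25 mg/kg and FK506 6 mg/kg (7 genes, 58.3% of 12 and 77.8% of 9), against the same vehicle rats. The overlap over all genes was not counted here either.

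Ctsd, which encodes the aspartic protease cathepsin D, rose. At day 28 it was 11.99, 12.04, 12.04 and 12.41 at CsA 25 mg/kg and 11.67, 11.91, 12.59, 11.92 and 11.73 at FK506 6 mg/kg, against 11.18, 11.27, 11.39, 11.04 and 11.48 in vehicle rats. All treated rats lay above all vehicle rats, with 1 rat of each drug well above the rest of its group. The changes were 0.85 ± 0.13 for CsA and 0.69 ± 0.12 for FK506 (SE; adjusted p 6.26e-07 and 1.8e-05), and 0.55 at FK506 0.6 mg/kg (adjusted p 0.0022). CsA 25 mg/kg rats were already higher at day 14, with 12.05, 12.06, 12.11 and 11.83 against 11.44, 11.64, 11.34 and 10.98 in vehicle rats (0.66, adjusted p 0.000604). Rapa also raised Ctsd at day 28, to 11.38, 11.73 and 11.80 (lowest, median, highest) at 10 mg/kg, overlapping the vehicle rats (0.38, adjusted p 0.0167), a call lost without vehicle replicate 4 (0.32). At Rapa 1 mg/kg its changes were 0.51 at day 14, lost without vehicle replicate 4 (0.39) or Rapa replicate 4 (0.43), and 0.43 at day 28 (adjusted p 0.0106 and 0.00987). Both Rapa calls of day 28 were lost with that day fitted alone (0.38 and 0.43), and the 1 mg/kg one with the hybridization controls as a covariate (0.32).

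Ctsl, a cysteine endopeptidase, was called in 9 comparisons, more than any other of the 41 genes, always higher. Ctsl at day 28 was 13.72, 14.01, 13.81 and 13.79 at CsA 25 mg/kg and 13.75, 13.79, 13.94, 13.83 and 13.77 at FK506 6 mg/kg, against 13.33, 13.34, 13.39, 13.47 and 13.41 in vehicle rats. No treated rat overlapped the vehicle rats, and the changes were 0.44 and 0.43 (adjusted p 1.31e-06 and 1.25e-06). At day 7 Ctsl was 13.54, 13.72, 13.73 and 13.70 at FK506 6 mg/kg, against 13.34, 13.29, 13.42 and 13.27 in vehicle rats (0.34, adjusted p 0.00357; 0.25 and not called without quantile normalization). At day 14 it was 13.86, 13.73 and 13.69 at FK506 6 mg/kg and 13.58, 13.58, 13.58 and 13.64 at CsA 25 mg/kg, against 13.46, 13.22, 13.32 and 13.37 in vehicle rats. All treated rats were again higher, and the FK506 6 mg/kg change was 0.42 (adjusted p 0.000755). The lower dose, FK506 0.6 mg/kg, raised Ctsl at day 14 (0.29, adjusted p 0.0366) and day 28 (0.34, adjusted p 0.000423). The call at CsA 25 mg/kg on day 14 (0.25, adjusted p 0.0236) was lost without vehicle replicate 2 (0.21) or 3 (0.24) or CsA replicate 4 (0.24) and without quantile normalization (0.18), and that at FK506 0.6 mg/kg on day 14 in 6 of 8 refits (range 0.25 to 0.33). A second Ctsl probe set rose by 1.10 under CsA 25 mg/kg, 1.07 under FK506 6 mg/kg and 0.75 under Rapa 10 mg/kg at day 28. Ctsc, cathepsin C, was not called with the probe set used (-0.05 at CsA 25 mg/kg, day 28), while its other probe set rose by 0.44 there (adjusted over all probe sets, p 0.0191).

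Psap and Npc2, whose protein binds cholesterol inside the lysosome, also rose at day 28. Psap was 11.37, 11.38, 11.29 and 11.61 at CsA 25 mg/kg and 11.36, 11.20, 11.35, 11.40 and 11.29 at FK506 6 mg/kg, against 10.84, 10.98, 11.04, 10.99 and 11.04 in vehicle rats. No treated rat overlapped the vehicle rats (changes 0.43 and 0.34, adjusted p 4.2e-05 and 0.000866). Npc2 was 11.32, 10.94, 11.15 and 11.65 at CsA 25 mg/kg and 11.20, 11.26, 11.12, 11.14 and 11.33 at FK506 6 mg/kg, against 10.69, 11.03, 10.81, 11.02 and 10.90 in vehicle rats. The CsA group overlapped the vehicle rats and the FK506 group did not. The Npc2 change was 0.38 for CsA (adjusted p 0.00631), lost without CsA replicate 4 (0.25), and 0.32 for FK506 (adjusted p 0.0189), lost without vehicle replicate 1 (0.27) or FK506 replicate 5 (0.29). Both calls were lost with day 28 fitted alone, at 0.38 and 0.32, and the FK506 one with the hybridization controls as a covariate (0.28).

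Lamp2, a heavily glycosylated protein of the lysosomal membrane needed for fusion with autophagosomes, was 12.85, 12.79, 12.76 and 12.75 at CsA 25 mg/kg and 12.68, 12.85, 12.76, 12.72 and 12.85 at FK506 6 mg/kg at day 28, against 12.44, 12.60, 12.57, 12.54 and 12.55 in vehicle rats. No rat of either drug overlapped the vehicle rats, and the changes were 0.24 for CsA, 0.23 for FK506, and 0.26 for FK506 0.6 mg/kg (adjusted p 0.0022, 0.00267 and 0.00167). Without quantile normalization the CsA change was 0.16 and not called. A second Lamp2 probe set moved by -0.07 and -0.03 under the higher doses and -0.03 under FK506 0.6 mg/kg, in the other direction. Of the 8 Rapa comparisons with vehicle, Lamp2 was called higher in 1, that of 10 mg/kg at day 28. Lamp1, the companion membrane protein, was 12.59, 12.68 and 12.74 (lowest, median, highest) under Rapa 10 mg/kg, 12.57, 12.84, 12.61, 12.71 and 12.77 under FK506 6 mg/kg and 12.70, 12.82, 12.65 and 12.72 under CsA 25 mg/kg at day 28, against 12.57, 12.94, 12.57, 12.48 and 12.67 in vehicle rats. All groups overlapped. Over the 24 comparisons its change stayed between -0.19 and 0.13, with 95% intervals reaching from -0.35 to 0.28.

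Prcp, a prolylcarboxypeptidase, varied widely. Prcp at day 28 was 7.90, 7.57, 8.21 and 8.09 at CsA 25 mg/kg and 7.79, 7.36, 6.44, 7.63 and 7.68 at FK506 6 mg/kg, against 4.33, 7.07, 6.82, 6.90 and 4.68 in vehicle rats. The vehicle rats split widely among themselves, and the FK506 group overlapped them while the CsA group did not. The changes were 1.98 for CsA (adjusted p 0.00363) and 1.42 for FK506 (adjusted p 0.0391), the FK506 call lost in 6 of 10 refits (range 1.01 to 1.70), and a second Prcp probe set moved by -0.09 under CsA. An intensity of 0 stands at 4 on this scale, so the lowest vehicle rats lie near its floor and the size of these changes depends on the offset (2.67 for CsA and 2.05 for FK506 with an offset of 1). At day 7 Prcp was 7.61, 7.50, 7.88 and 7.58 at FK506 6 mg/kg, against 4.90, 6.50, 6.51 and 4.78 in vehicle rats (1.97, adjusted p 0.0319), a call lost in 6 of 8 refits (range 1.67 to 2.25). Those vehicle rats had the lowest Prcp mean of the 28 groups (5.67). CsA differed from them by 1.53 at 25 mg/kg and 1.39 at 2.5 mg/kg, neither called (adjusted p 0.104 and 0.518). Ctsz, a carboxypeptidase, was 7.35, 7.25, 8.06 and 8.25 at CsA 25 mg/kg at day 28, against 7.55, 7.18, 7.09, 7.19 and 7.26 in vehicle rats. The CsA rats fell into a lower and a higher pair, and the lower pair overlapped the vehicle rats (0.47, adjusted p 0.0428, lost in 6 of 9 refits with a range of 0.30 to 0.63). Lipa, the lysosomal acid lipase, changed by 0.29 (adjusted p 0.0409) in the same rats, a call lost in 7 of 9 refits.

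Mcoln1, which encodes the calcium channel through which calcineurin is activated at the lysosome, fell. Mcoln1 at day 28 was 9.19, 8.86, 9.46 and 8.64 at CsA 25 mg/kg and 9.16, 9.16, 8.74, 9.12 and 9.28 at FK506 6 mg/kg, against 9.84, 9.74, 9.67, 9.69 and 9.58 in vehicle rats. Every treated rat lay below every vehicle rat. The changes were -0.67 ± 0.12 for CsA and -0.61 ± 0.11 for FK506 (SE; adjusted p 6.19e-06 and 1.52e-05). Under Rapa 1 mg/kg the lowest, median and highest levels were 8.97, 9.17 and 9.52, a change of -0.49 (adjusted p 0.000721), and under Rapa 10 mg/kg they were 9.14, 9.42 and 9.68, overlapping the vehicle rats (-0.29, adjusted p 0.0439), a call lost in 4 of 5 refits (range -0.32 to -0.25). At day 7 Mcoln1 was 8.98, 9.04, 9.31 and 9.14 under Rapa 10 mg/kg, against 9.66, 9.77, 9.33 and 9.40 in vehicle rats (-0.42, adjusted p 0.0185), with no overlap but a call lost in 4 of 8 refits (range -0.49 to -0.35).

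Other falls under the calcineurin inhibitors were few. Tpp1 was lower by 0.25 at CsA 25 mg/kg on day 28 (adjusted p 0.000646) than in vehicle rats, whose mean was the highest of the 28 groups (10.85). The pump subunits Atp6v1a and Atp6v1h changed by -0.15 and -0.20 in the same CsA rats (adjusted p 0.04 and 0.0227), lost in 6 and 4 of 9 refits. Ulk1 at day 7 was 8.29, 8.42, 8.43 and 8.09 at FK506 6 mg/kg and 8.28, 8.35, 8.23 and 8.31 at CsA 25 mg/kg, against 8.56, 8.70, 8.68 and 8.81 in vehicle rats, without overlap. Its changes were -0.38 and -0.40 (adjusted p 0.0209 and 0.0119). The vehicle rats of day 7 had the highest Ulk1 mean of the 28 groups (8.69), against 8.25 and 8.36 in vehicle rats of days 1 and 28. The Gapdh ratios at day 7 were 0.349 to 0.535 for FK506 and 0.352 to 0.503 for CsA, against 0.598 to 0.888 in vehicle rats, and with the ratio as a covariate the changes were -0.33 (adjusted p 0.108) and -0.34 (adjusted p 0.0744). Both calls were also lost without vehicle replicate 4 (-0.34 for FK506, -0.35 for CsA), and the FK506 one without FK506 replicate 4 (-0.31). Ctsb and Becn1 also changed at day 7 under FK506 6 mg/kg. Ctsb was 13.29, 13.42, 13.28 and 13.35 there, against 13.24, 13.15, 13.01 and 12.98 in vehicle rats (0.25, adjusted p 0.0474), and Becn1, the gene of Beclin 1, was 9.66, 9.80, 9.64 and 9.89, against 10.02, 9.87, 10.01 and 10.09 (-0.25, adjusted p 0.0326). These calls were lost in 7 and 6 of 8 refits without 1 rat. At day 28 Asah1 was 8.87, 9.67, 9.30, 8.96 and 9.51 under FK506 6 mg/kg, against 9.45, 9.79, 9.76, 9.67 and 9.72 in vehicle rats (-0.42, adjusted p 0.0409), with overlap. Its call and that of Wipi1, a phosphoinositide-binding protein of early autophagosomes (-0.27, adjusted p 0.0463), were each lost in 7 of 10 refits, and with the hybridization controls as a covariate they were -0.15 and -0.20 and not called. A second Asah1 probe set moved the other way (0.18).

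Sqstm1, the autophagy receptor p62, was 11.44, 11.84 and 11.94 (lowest, median, highest) under Rapa 10 mg/kg, 11.91, 11.82, 11.75, 11.95 and 11.99 under FK506 6 mg/kg and 11.70, 11.91, 12.10 and 11.81 under CsA 25 mg/kg at day 28, against 11.69, 11.82, 11.93, 11.62 and 12.02 in vehicle rats. The groups overlapped, and over all 24 comparisons its change lay between -0.17 and 0.14, with 95% intervals from -0.39 to 0.37. The 12 genes never called with the probe set used were Atg12, Atg3, Atg5, Atg7, Atp6v0d1, Ctsc, Gla, Lamp1, Map1lc3a, Neu1, Scarb2 and Sqstm1. For the 3 higher doses at day 28 the lowest and highest bounds among their 95% intervals were -0.76 (Neu1, Rapa 10 mg/kg) and 0.56 (Scarb2, FK506 6 mg/kg), and those of the other genes lay inside these.

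Macrophage and injury markers rose in the same rats as Ctsd, Ctsl, Psap and Npc2. The summed macrophage markers at day 28 were 6954 to 14824 at CsA 25 mg/kg and 5093 to 10048 at FK506 6 mg/kg, against 3461 to 5297 in vehicle rats, and 13 and 7 of the 15 markers tested rose. At day 14 the CsA 25 mg/kg sums were 9689 to 13316, against 4161 to 5499 in vehicle rats. At day 7 the CsA 25 mg/kg sums were 8316 to 11428, against 3553 to 5645 in vehicle rats. None of the 41 genes was called higher in that comparison, with 22 changes above 0 and 19 below. By limma, 8 of the 41 had an unadjusted p under 0.05, against 17% of all genes. These were Ctsz, Psap, Prcp and Atg12, which were higher, and Mcoln1, Becn1, Gabarapl1 and Ulk1, which were lower. Of the 8 tubular injury markers, 7 rose at each of the 2 higher doses at day 28. The summed distal convoluted tubule markers (6 genes) at day 28 were 810 to 1346 at CsA 25 mg/kg and 1198 to 1591 at FK506 6 mg/kg, against 4274 to 8564 in vehicle rats, and 4 and 3 of the 5 tested fell. At day 7 they were 1368 to 2275 for CsA and 1758 to 2390 for FK506, against 5805 to 9896 in vehicle rats. Proximal tubule sums at day 28 were 65757 to 78810 at CsA 25 mg/kg and 71158 to 81641 at FK506 6 mg/kg, against 76788 to 87545 in vehicle rats, with overlap, and 2 and 1 of the 12 markers fell. The part of these markers in the lysosomal changes was not tested. The lower hybridization controls at FK506 6 mg/kg also go with these values: with them as a covariate the FK506 6 mg/kg count at day 28 was 5 in place of 9, and that at Rapa 1 mg/kg 9 in place of 15.

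**Figure D3:**
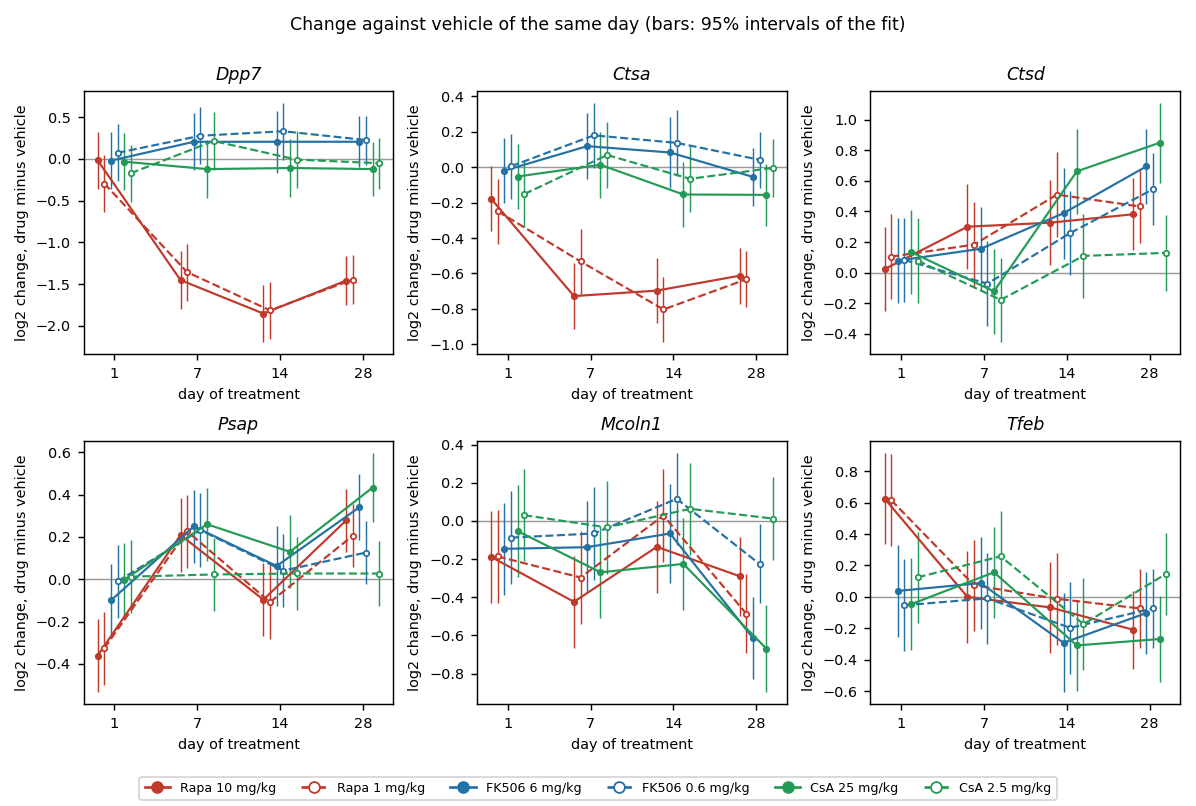
Log2 change from vehicle of the same day (vertical axis) against day of treatment for 6 genes, with 95% intervals, for the 6 treatments. Dpp7 and Ctsa fall from day 7 under both Rapa doses, while Ctsd rises and Mcoln1 falls toward day 28 under CsA 25 mg/kg and FK506 6 mg/kg.

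The timing was tested as the difference between the drug effect at day 28 and that at day 1. For CsA 25 mg/kg, 3 genes were called with a higher and 2 with a lower effect at day 28, against 2.83% and 2.14% of all genes (4.97% in all): Ctsd (0.71, adjusted p 0.0148), Ctsl (0.40, 0.0105), Psap (0.44, 0.0183), Mcoln1 (-0.62, 0.0165) and Tpp1 (-0.26, 0.0476). Without the 4 arrays whose Alb level was above 12, which include replicates 3 and 4 of CsA 25 mg/kg at day 1, the calls of Ctsd (0.57), Psap (0.40) and Tpp1 (-0.26) were lost. For FK506 6 mg/kg, 2 were higher and 1 lower, against 1.89% and 1.42% of all genes (3.3% in all). For Rapa 10 mg/kg, 2 were higher and 7 lower, against 2.19% and 3.36% of all genes (5.54% in all), among them Dpp7 (-1.44, adjusted p 6e-06), Hexa (-0.39, 0.00987) and Ctsa (-0.43, 0.0191). With the Gapdh ratio as a covariate that count was 3 in place of 9, and Hexa (-0.29) was not called. In vehicle rats Tpp1 was the 1 gene called between days 28 and 1 (0.22, adjusted p 0.0189), and 7 of the 41 had an unadjusted p under 0.05. Among these Atg10 was 1.28 higher at day 28 (adjusted p 0.0867), a shift that is part of its FK506 and Rapa contrasts between days. Asah1 was also among them, 0.48 higher at day 28 (adjusted p 0.0931), a shift that is part of its Rapa contrast. The Tpp1 shift is part of its CsA contrast. Among all genes, 0.91% were higher and 1.17% lower in this vehicle comparison (2.08% in all).

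The calcineurin inhibitors were also compared directly with Rapa at day 28. Doses in mg/kg differ between the drugs, so a difference sets one dose against another. CsA 25 mg/kg had 15 of the 41 genes higher and 2 lower than Rapa 10 mg/kg, against 10.4% and 9.46% of all genes (19.9% in all). FK506 6 mg/kg had 10 higher and 3 lower than Rapa 10 mg/kg, against 6.83% and 4.13% of all genes (11% in all). By role, 8 of the 11 proteases and 6 of the 9 glycosidases and lipid enzymes were higher with CsA, and 7 and 3 of them with FK506, while among the other 21 genes 1 was higher and 2 lower with CsA, and 0 higher and 3 lower with FK506. Dpp7 was higher by 1.34 with CsA and by 1.66 with FK506 (adjusted p 5.42e-10 and 1.36e-15). Lgmn was higher by 0.72 and 0.71 (adjusted p 1.81e-06 and 1.16e-06) and Ctsa by 0.46 and 0.56 (adjusted p 2.88e-05 and 1.88e-07). Ctsz was higher by 0.69 and 0.60 (adjusted p 0.00168 and 0.0065), the FK506 call lost without FK506 replicate 1 (0.44). Gabarapl1 was lower by both comparisons, at -0.50 with CsA and -0.42 with FK506 (adjusted p 0.00011 and 0.00105). Mcoln1 was also lower, at -0.38 and -0.32 (adjusted p 0.00869 and 0.0288), lost without CsA replicate 2 (-0.32) or 4 (-0.25) and without FK506 replicate 3 (-0.24), and in both comparisons with day 28 fitted alone. With the hybridization controls as a covariate the FK506 calls of Ctsz (0.58) and Mcoln1 (-0.28) were lost.

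CsA 25 mg/kg and FK506 6 mg/kg differed in 1 of the 41 genes, Atp6v1a, which was lower with CsA at -0.22 (adjusted p 0.0102). Of all genes, 2.02% were higher and 3.69% lower (5.7% in all). The Atp6v1a call was lost without CsA replicate 2 (-0.18) or FK506 replicate 1 (-0.17). A p above the threshold does not show that the other 40 genes were alike.

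**Figure D4:**
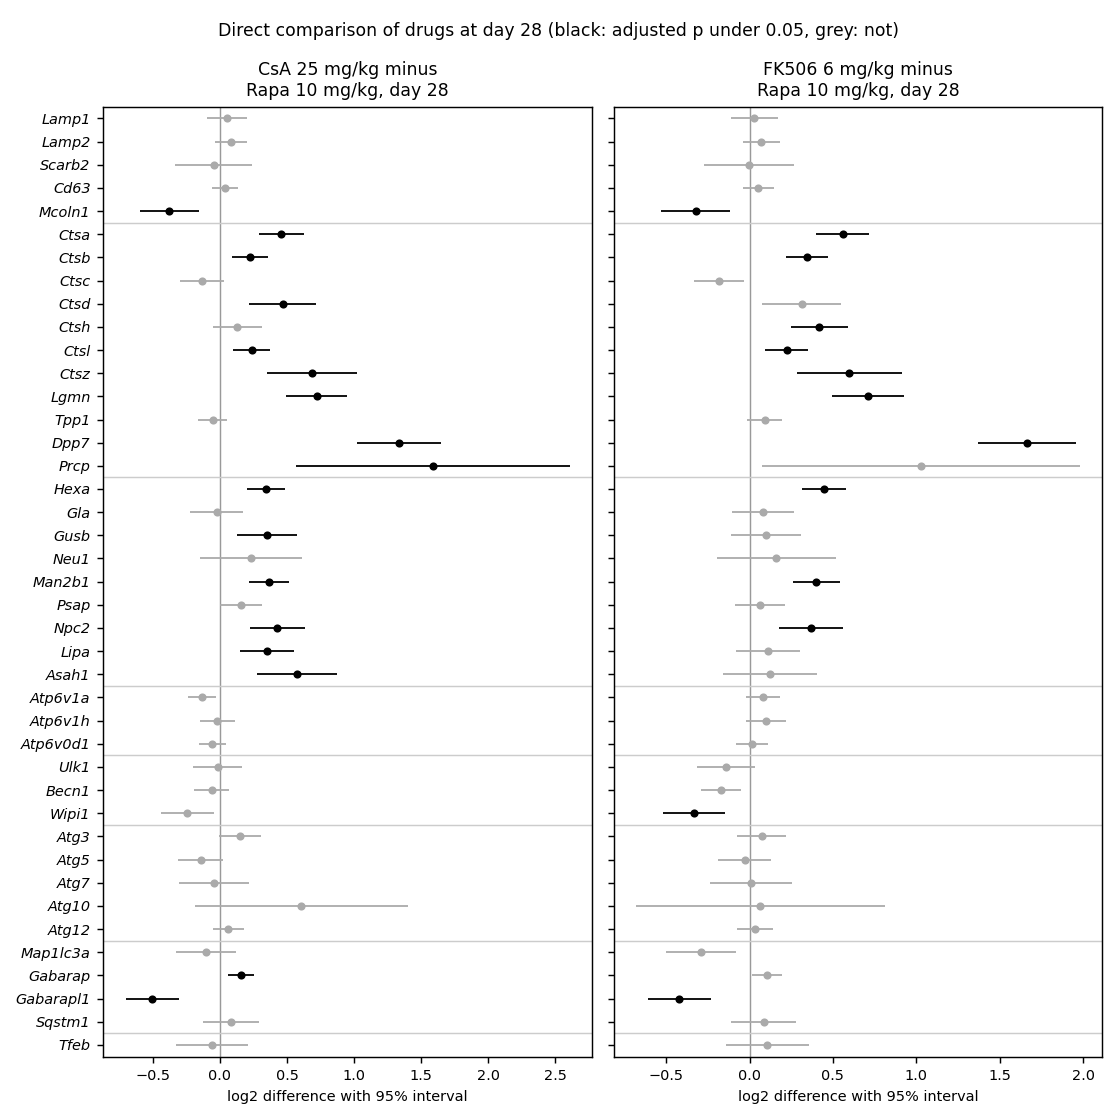
Difference at day 28 on the log2 scale with 95% intervals for the 41 genes (vertical), CsA 25 mg/kg minus Rapa 10 mg/kg and FK506 6 mg/kg minus Rapa 10 mg/kg. Black marks an adjusted p under 0.05. Dpp7 is higher by 1.34 and 1.66, Prcp in the CsA panel has the widest interval, and Gabarapl1 and Mcoln1 lie left of 0.

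Between doses of one drug at day 28, CsA 25 mg/kg had 6 genes higher and 3 lower than 2.5 mg/kg, against 8.75% and 9.69% of all genes (18.4% in all), led by Ctsd (0.72, adjusted p 2.91e-05), Mcoln1 (-0.68, 5.98e-06), Ctsl (0.42, 6.98e-06) and Psap (0.41, 0.000159). FK506 6 mg/kg differed from 0.6 mg/kg in Mcoln1 (-0.39, adjusted p 0.0318), where 0.61% of all genes were higher and 1.01% lower (1.62% in all). That call was lost with the hybridization controls as a covariate (-0.35), with day 28 fitted alone, and without FK506 6 mg/kg replicate 3 (-0.30) or 4 (-0.40). Rapa 10 and 1 mg/kg differed in 0 of the 41 genes by limma (0.122% of all genes called), with 3 of 41 at an unadjusted p under 0.05.

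Lysosomal genes outside the 41 were counted from lists of the same pathway. Of 43 other lysosomal genes tested, Rapa 10 mg/kg lowered 6, 10 and 6 at days 7, 14 and 28 (14%, 23.3% and 14%, against 4.3%, 5.3% and 8.16% of all genes) and raised 2 on each day (4.65%, against 3%, 5.19% and 7.57%). At day 28 FK506 6 mg/kg raised 13 and lowered 1 (30.2% and 2.33%, against 8.73% and 7.29% of all genes), and CsA 25 mg/kg raised 7 and lowered 3 (16.3% and 6.98%, against 10.5% and 10.7%). Glb1, the lysosomal beta-galactosidase, fell with Rapa 10 mg/kg by 0.62, 0.75 and 0.72 at days 7, 14 and 28 (adjusted p 3.15e-06, 9.44e-09 and 1.28e-10). Gpnmb, a glycoprotein of phagocytes and other cells, rose by 2.11 under CsA 25 mg/kg and 1.70 under FK506 6 mg/kg at day 28 (adjusted p 3.67e-07 and 1.59e-05). Cd68, a lysosomal protein of macrophages, rose by 0.93 and 0.70 there. Of 36 other autophagy genes at day 28, Rapa 10 mg/kg raised 5 and lowered 1 (13.9% and 2.78%, against 7.57% and 8.16% of all genes), among them the receptor gene Tax1bp1 (0.31, adjusted p 4.46e-06) and the mitophagy receptor gene Bnip3l (0.23, adjusted p 5.09e-05). FK506 6 mg/kg raised 1 and lowered 2 of them and CsA 25 mg/kg raised 3 and lowered 2, or 8.33% and 13.9% called, below the 16% and 21.1% of all genes. Of 19 other proton pump genes at day 28, 2 were called under each of Rapa 10 mg/kg, FK506 6 mg/kg and CsA 25 mg/kg (10.5%, against 15.7%, 16% and 21.1% of all genes). Of 22 TFEB regulators and relatives, Rapa 10 mg/kg lowered 3 and raised 0 (13.6% called, against 15.7% of all genes), including the Ragulator subunit gene Lamtor5 (-0.49) and Flcn (-0.28). FK506 6 mg/kg lowered 1 (Lamtor5, -0.40; 4.55% called, against 16%), and CsA 25 mg/kg raised 1 and lowered 4 (22.7% called, against 21.1%), including Lamtor5 (-0.44) and Ppargc1a (-1.43).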

How the data were processed

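Per the labels' protocols, total kidney RNA was labelled with biotin by a one-cycle 3′ amplification kit, hybridised to Affymetrix rat genome arrays and read with the GeneChip Operating Software. The deposited table holds 1 linear intensity per probe set and array for 31099 probe sets; how probes were summarised and scaled by the authors is not given in the sources used here, nor is any slide or scan batch. Of these, 20826 probe sets map to 1 gene, 436 to several and 9780 to none, and 57 are controls. Intensities were raised by 16, put on the log2 scale and quantile normalized, 1 probe set stood for each of 14217 genes, and the dimmest 25% of genes (3554) were left out. limma 3.58.1 (R 4.3.3) fitted 28 group means on 120 arrays (92 residual degrees of freedom), with eBayes and Benjamini-Hochberg adjustment over 10663 genes in each of 34 two-sided comparisons. Fits were tested on simulated data. The number of arrays limits the precision.

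The members, the other gene lists and the marker lists were chosen with earlier results of these data known. Levels in every rat are given for members called at a higher dose, by size of change, up to 6 in each comparison, and for Tfeb, Lamp1, Sqstm1, Mcoln1 and Ulk1; from each other list up to 4 called genes with the largest change may be named. The fits were repeated with dim genes kept, with 1 in place of 16 as the offset, without quantile normalization, with the Gapdh ratio or the level of the hybridization controls in the model, on the compared days alone, without the 4 arrays whose Alb level was above 12, with other probe sets of a member, and without 1 rat at a time (98 refits). Promoter sequences are RefSeq's on GRCr8.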

Additional observations from a re-analysis of the deposited data

Results flagged for a closer look

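In 77 sets of levels, a gene within a group of 4 to 6 rats, a rat that stands far from the rest of its group was looked for, at a limit that chance passes in about 5% of such sets. It found 8. Ctsd in replicate 4 of CsA 25 mg/kg at day 28 (12.41, the next rat at 12.04) and in replicate 3 of FK506 6 mg/kg at day 28 (12.59, the next at 11.92) stood high. Ctsl stood high in replicate 4 of CsA 25 mg/kg at day 14 (13.64, the next at 13.58) and low in replicate 1 of FK506 6 mg/kg at day 7 (13.54, the next at 13.70). Gusb stood high in replicate 2 of Rapa 10 mg/kg at day 14 (8.21, the next at 7.81), and Ctsh stood low in replicate 2 of Rapa 10 mg/kg at day 7 (12.62, the next at 13.01). In vehicle rats, Atg10 stood high in replicate 2 at day 1 (6.72, the next at 5.28) and Lgmn low in replicate 1 at day 14 (12.24, the next at 12.58).

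The drug effect at day 28 differed from that at day 1, by the interaction contrast in limma, for 17 pairs of gene and drug. For CsA 25 mg/kg these were Ctsd (0.71), Ctsl (0.40), Psap (0.44), Mcoln1 (-0.62) and Tpp1 (-0.26). For FK506 6 mg/kg they were Ctsd (0.62, adjusted p 0.0446), Psap (0.44, 0.018) and Atg10 (-2.06, 0.0317). For Rapa 10 mg/kg they were Dpp7 (-1.44), Ctsa (-0.43), Hexa (-0.39), Psap (0.64), Asah1 (-0.83, adjusted p 0.0109), Atg10 (-1.87, 0.036), Gabarapl1 (0.48, 0.0354), Ulk1 (-0.44, 0.0336) and Tfeb (-0.83, 0.00303). The Mcoln1 and Psap calls for CsA were lost without CsA replicate 4 of day 28 (-0.48 and 0.37), and the Psap call for FK506 without FK506 replicate 4 of day 1 (0.31). The calls of Tpp1 for CsA, of Ctsd and Atg10 for FK506, and of Atg10, Gabarapl1 and Ulk1 for Rapa were lost in 5 or more refits without 1 rat. Vehicle rats themselves were higher at day 28 than at day 1 in Asah1 (0.48), Atg10 (1.28) and Tpp1 (0.22), and these shifts enter the contrasts. The Rapa contrasts include the day 1 rats whose Gapdh ratios lay above those of vehicle, and with that ratio as a covariate the changes were -0.61 for Tfeb, -0.61 for Asah1, -0.37 for Ulk1, -0.29 for Hexa, 0.45 for Gabarapl1 and -1.89 for Atg10, none of them called.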

How the results depend on the processing

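Of the 168 gene results called, 82 kept their call under each alternative run and each refit without 1 rat, 77 lost it under at least 1 alternative and 70 in at least 1 refit. Other probe sets of a gene do not enter these counts and are given separately below, so a call among the 82 can still turn with another probe set. Rats of the groups of 6 were not left out, so the day 28 Rapa calls faced only refits without a vehicle rat. The counts of called genes moved by more than 1.5 times as follows, with the count in the report after each. Without quantile normalization they were 1 for CsA 25 mg/kg at day 14 (2), 3 and 2 for FK506 6 mg/kg at days 7 (5) and 14 (1), 14 for Rapa 10 mg/kg at day 7 (8), 0 for FK506 0.6 mg/kg at days 7 (1) and 14 (1), and 3 for the CsA effect between days (5). With an offset of 1, CsA 25 mg/kg minus FK506 6 mg/kg gave 2 (1). With the Gapdh ratio as a covariate the counts were 0 for CsA 25 mg/kg at day 7 (1), 1 for FK506 6 mg/kg at day 7 (5), 0 for both Rapa doses at day 1 (4 and 3), 0 for FK506 0.6 mg/kg at day 7 (1) and 3 for the Rapa effect between days (9). With the hybridization controls as a covariate they were 5 for FK506 6 mg/kg at day 28 (9), 9 for Rapa 1 mg/kg at day 28 (15), 7 for FK506 6 minus Rapa 10 mg/kg (13), and 0 for CsA 25 minus FK506 6 mg/kg (1), FK506 6 minus 0.6 mg/kg (1) and the FK506 effect between days (3). Without the arrays with Alb above 12, the CsA effect between days gave 2 (5). With the compared days alone the counts were 2 for FK506 6 mg/kg at day 7 (5), 0 for FK506 0.6 mg/kg at day 14 (1), 7 for CsA 25 mg/kg (12), 10 for Rapa 10 mg/kg (17) and 9 for Rapa 1 mg/kg (15) at day 28, and 0 for CsA 25 minus FK506 6 mg/kg (1) and FK506 6 minus 0.6 mg/kg (1). The cause was not tested. No direction turned outside other probe sets.

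With another probe set of the gene, the direction turned for Asah1 (0.18 for FK506 6 mg/kg and 0.0096 for Rapa 1 mg/kg at day 28, 0.037 for the Rapa effect between days), Gabarap (0.019, Rapa 10 mg/kg, day 28), Atp6v1a (0.049 for Rapa 1 mg/kg at day 7 and 0.046 for CsA 25 minus FK506 6 mg/kg), Ulk1 (-0.058 for Rapa 10 mg/kg at day 1 and 0.088 for its effect between days), Lamp2 (-0.071 for CsA 25, -0.029 for FK506 6, -0.025 for Rapa 10 and -0.034 for FK506 0.6 mg/kg at day 28), Man2b1 (0.28 for Rapa 10 mg/kg at day 14, 0.44 for Rapa 1 mg/kg at day 7, -0.035 for FK506 0.6 mg/kg and -0.020 for FK506 6 minus Rapa 10 mg/kg at day 28) and Prcp (-0.086 for CsA 25 mg/kg and -0.030 for CsA 25 minus Rapa 10 mg/kg at day 28).

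Leaving out 1 rat at a time, the counts ranged, lowest to highest, over 0 to 2, 1 to 2 and 8 to 12 for CsA 25 mg/kg at days 7, 14 and 28, 0 to 1, 1 to 4, 1 to 2 and 6 to 8 for FK506 6 mg/kg at days 1, 7, 14 and 28, and 1 to 3, 4 to 10, 9 to 9 and 14 to 15 for Rapa 10 mg/kg at days 1, 7, 14 and 28. They ranged over 0 to 2, 0 to 1 and 3 to 4 for FK506 0.6 mg/kg at days 7, 14 and 28, and 1 to 3, 5 to 7, 7 to 12 and 10 to 15 for Rapa 1 mg/kg at days 1, 7, 14 and 28. The count of 12 for CsA 25 mg/kg at day 28 was 8 without CsA replicate 4, that of 5 for FK506 6 mg/kg at day 7 was 1 without vehicle replicate 4, that of 4 for Rapa 10 mg/kg at day 1 was 1 without Rapa replicate 2, that of 3 for Rapa 1 mg/kg at day 1 was 1 without vehicle replicate 2, that of 8 for Rapa 10 mg/kg at day 7 was 4 without vehicle replicate 1 or Rapa replicate 2, and that of 11 for Rapa 1 mg/kg at day 14 was 7 without Rapa replicate 4. Direct comparisons ranged over 1 to 2 (CsA 25 minus FK506 6), 14 to 18 (CsA 25 minus Rapa 10), 12 to 14 (FK506 6 minus Rapa 10), 6 to 9 (CsA 25 minus 2.5) and 0 to 1 (FK506 6 minus 0.6 mg/kg), the effects between days over 2 to 5 (CsA, lowest without CsA replicate 4 of day 28), 0 to 3 (FK506, lowest without FK506 replicate 4 of day 1) and 7 to 10 (Rapa), and vehicle over 0 to 1. Groups of 6 rats and CsA 2.5 mg/kg at day 1 were not left out in turn. The comparisons of CsA 25 mg/kg and FK506 0.6 mg/kg at day 1 and of CsA 2.5 mg/kg at each day had 0 calls in each refit without 1 rat (range 0 to 0). No paired analysis was possible because each day has its own rats and the labels give no replicate numbers shared between groups.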
